A study of Mus musculus with 3 samples.

Results

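Type 2 conventional dendritic cells (cDC2) made up 668 of the 20266 immune cells that the authors kept from the healthy mouse kidney. They were taken as the cells to which the deposited table gives the cluster name cDC2, 1 of 23 clusters, and no cell was added or removed. The cDC1 cluster (303 cells), the Monocyte cluster (714 cells) and Macrophage_2 (1680 cells), 1 of the resident macrophage clusters, served for comparison. The tissue was dissected into outer medulla (OM), inner medulla (IM) and cortex, and cells sorted for CD45 were profiled by droplet-based sequencing in 3 datasets named Aachen, Bonn and Hamburg. All mice were wild type (labelled wt) and untreated (labelled untouched), and per the study's methods they were male C57BL/6J animals of 10 weeks. The cells of 1 compartment in 1 dataset were treated as 1 library, which gave 9 libraries and 3 datasets per compartment. The number of animals behind a library is not given in the sources used here, so a p-value measures only the spread between these 3 datasets, and facility, animals and sequencing run cannot be told apart within a dataset.

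Conventional dendritic cells take up antigen in tissues, carry it to lymph nodes and present it to T cells, and they develop under the growth factor sensed by the receptor Flt3. The cDC1 lineage depends on the transcription factors Irf8 and Batf3 and is known for presenting antigen to CD8 T cells, whereas cDC2 depend on Irf4 among other factors, carry Sirpa and the integrin Itgam, and mainly present antigen to CD4 T cells on MHC class II. cDC2 share lectins, Fc receptors and myeloid genes with monocytes and macrophages, which makes them harder to separate from those cells than cDC1. The kidney medulla differs from the cortex in its high salt and low oxygen.

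The 9 libraries held 22, 81 and 50 cDC2 cells (Aachen cortex, OM and IM), 83, 40 and 115 (Bonn) and 42, 160 and 75 (Hamburg). Depth differed between datasets: the median cDC2 cell held 1520 to 3608.5 unique molecular identifiers (UMIs) in Aachen, 7538 to 9123 in Bonn and 3486 to 6812 in Hamburg. Within each dataset the upper value of this range belonged to the cortex. Depth per cell therefore also differed between cortex and medulla, along with the contrast tested below. Calls made in cells thinned to 500 UMIs are given in the last section. The summed cDC2 counts ranged from 72941 UMIs in Aachen cortex to 931386 in Bonn IM. Levels are given below as CPM, the summed UMIs of a gene scaled to the effective total of that class in that library (its UMI total times a TMM factor set among the libraries of the class), and the values of 9 libraries are listed as cortex, OM and IM of each dataset. Cell barcodes were shared between libraries in 225 pairs of cells, of which 1 pair lay within cDC2. Scrublet marked 14 of the 668 cDC2 cells as doublets. Transcripts of other cells were low but present: per 10000 UMIs of cDC2, 8 T cell genes summed to 0.16 to 2.46, 8 B cell genes to 0.27 to 6.12 and 12 kidney tubule genes to 0.35 to 2.14. The sum of 6 neutrophil genes was at most 0.14 in 7 libraries but reached 8.77 in Hamburg cortex and 4.27 in Hamburg OM.

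The defining markers were high in the cluster, which is a description and no test of its name, since the study annotated its dendritic cells by Cd209a and Clec10a among others. Cd209a, a C-type lectin that binds sugars on microbes, ranged from 794 to 2085 CPM in cDC2 with a median of 1412 CPM. Its median was 19.1 CPM in cDC1, 68.7 CPM in monocytes, 33.7 CPM in Macrophage_2 and 2.27 CPM in T and B cells, which should lack it. Cd209a was thus higher in cDC2 in all 8 libraries that could be compared with cDC1 and in all 9 compared with either other cluster. Clec10a, a lectin for galactose-type sugars, had a median of 307 CPM in cDC2 (range 190 to 466 CPM). It did not exceed 17.1 CPM in cDC1, 50.2 CPM in monocytes or 46.5 CPM in Macrophage_2, so no library of those clusters reached the cDC2 range. Mgl2, the close relative of Clec10a that encodes CD301b, was not highest in cDC2: its median was 273 CPM in cDC2, 8.71 CPM in cDC1 and 46.3 CPM in monocytes, but 476 CPM in Macrophage_2. cDC2 were above Macrophage_2 for Mgl2 in 1 of 9 libraries. After every cell was thinned to 500 UMIs, a Cd209a UMI was found in 42.8% of cDC2 cells against 0.13% of T and B cells, and before thinning the shares were 74.4% and 0.51%. An Mgl2 UMI was found in 14.03% of thinned cDC2 cells and in 20.7% of thinned Macrophage_2 cells. These genes lie at chr8:3743397-3748984 (Cd209a, minus strand), chr11:70156197-70170834 (Clec10a, plus strand) and chr11:70130329-70137550 (Mgl2, plus strand) of GRCm38, and 8.52% of the 50-base windows in the last 500 bases of Mgl2 transcripts also occur in Clec10a, so a part of their reads could be assigned to either.

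**Figure D1:**
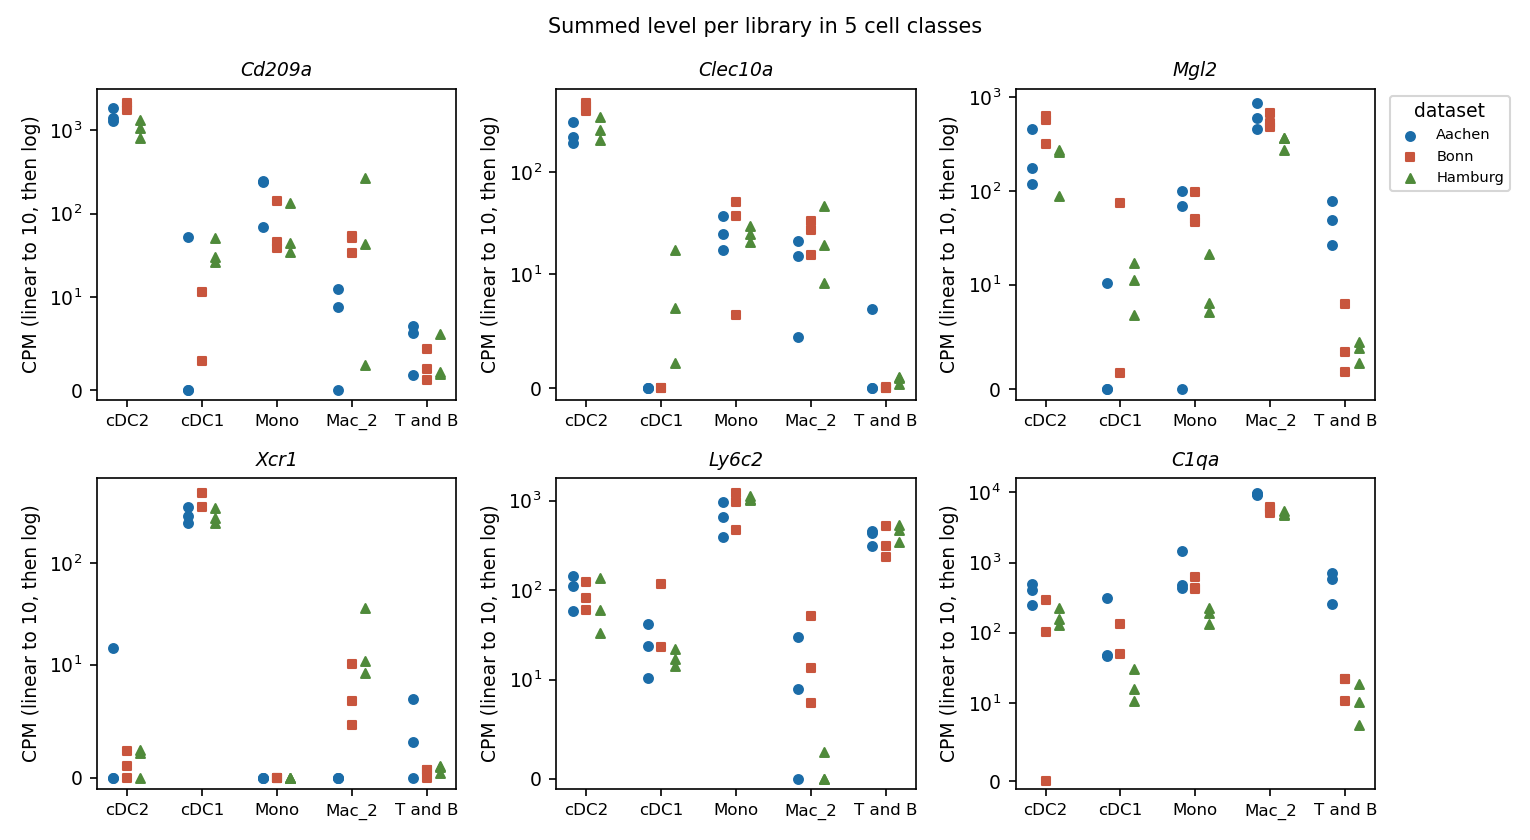
Level (CPM, y axis, linear up to 10 and logarithmic above) of 3 cDC2 markers and of 1 marker each of cDC1 (Xcr1), monocytes (Ly6c2) and resident macrophages (C1qa), by cell class on the x axis. Each point is 1 library and its colour and shape give the dataset; Cd209a and Clec10a of cDC2 lie above every other class, whereas Mgl2 of Macrophage_2 overlaps cDC2.

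The share of cDC2 among conventional dendritic cells was higher in the medulla than in the cortex in every dataset. In Aachen, cDC2 were 33.9% of cDC1 and cDC2 together among cortical cells, 79.4% for OM and 64.1% for IM. The Bonn shares were 59.7%, 85.1% and 89.8%, and the Hamburg shares 44.2%, 73.4% and 75.8%. No medullary library fell as low as the highest cortical one. The means were 45.9% ± 13.02 (cortex), 79.3% ± 5.86 (OM) and 76.6% ± 12.9 (IM; SD, n = 3 datasets each). Medulla, as the mean of OM and IM, exceeded cortex by 37.9, 27.8 and 30.4 percentage points in Aachen, Bonn and Hamburg, on average by 32.0 points. In an exact two-sided permutation test of the compartment labels within datasets p was 0.037, the smallest that 27 arrangements can give, and 0.0556 after adjustment over the 3 shares tested. OM and IM had no common order, since OM minus IM was 15.3 points in Aachen, -4.74 in Bonn and -2.36 in Hamburg.

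The same direction was found against all immune cells. cDC2 were 1.58%, 2.20% and 2.41% of the cells of Aachen cortex, OM and IM, whereas Bonn gave 2.27%, 6.44% and 6.14% and Hamburg 1.72%, 6.52% and 3.65%. Every medullary value was above the cortical value of its own dataset, although Aachen OM (2.20%) lay below Bonn cortex (2.27%). The medulla exceeded the cortex by 0.73, 4.03 and 3.37 points, and the exact permutation p was again 0.037, with an adjusted value of 0.0556. Among mononuclear phagocytes, the Aachen shares were 3.49%, 3.27% and 6.22%. Bonn gave 8.97%, 15.4% and 12.7%, Hamburg 8.50%, 15.4% and 13.6%, and the mean difference of 4.09 points had an exact permutation p of 0.074. Aachen OM was the only medullary library in which this share was not above its own cortex. Shares depend on how many cells of other types each dissection and sort recovered, and their part in these differences was not tested.

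**Figure D2:**
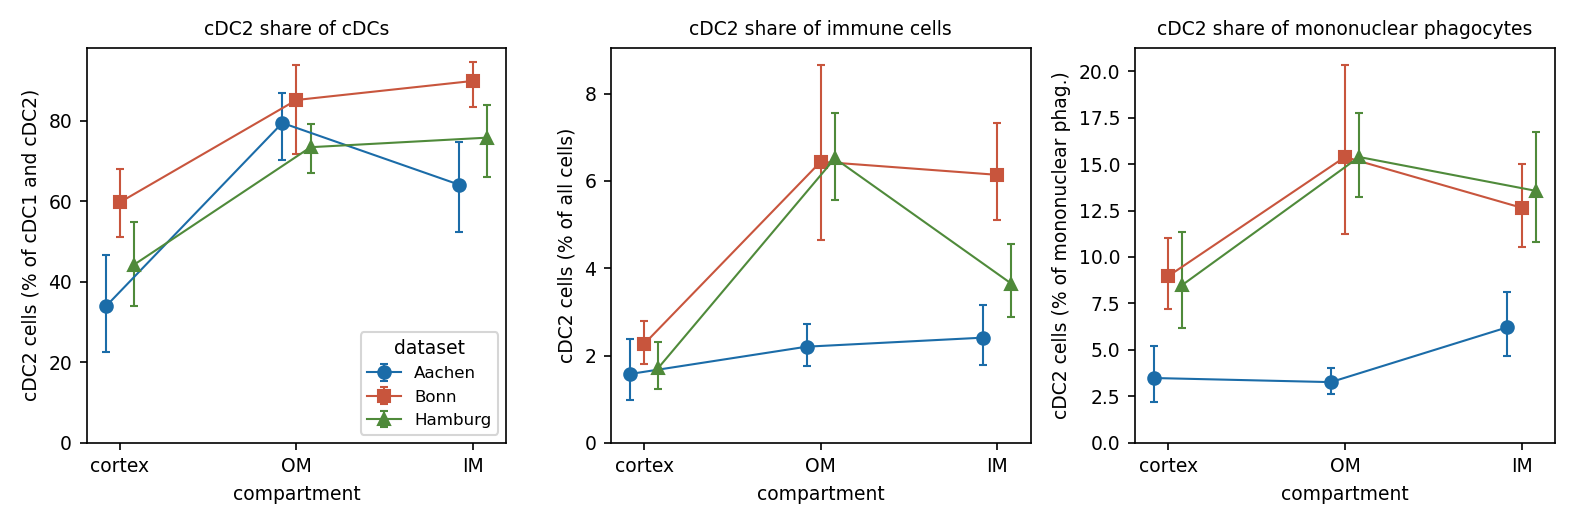
Share of cDC2 (%, y axis) among conventional dendritic cells, all immune cells and mononuclear phagocytes in each compartment (x axis), with 1 line per dataset; bars are exact 95% binomial intervals, which cover counting error only. The share among conventional dendritic cells is higher in both medullary libraries than in the cortex of all 3 datasets, whereas Aachen lies lowest among mononuclear phagocytes.

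The gene levels that set cDC2 apart from the clusters beside them are described without a test, because the clusters were made from the same genes. Differences were taken within each library on plain totals, without TMM factors. Against cDC1, 416 of 4227 genes (9.84%) were higher in cDC2 in every one of 8 libraries and 292 (6.91%) were lower. Of 12 cDC1 markers, 11 were lower in cDC2 in every library, with a median log2 difference of -3.31 over the 12. Xcr1, the chemokine receptor that marks cDC1, ranged from 0 to 14.6 CPM in cDC2 and from 244 to 493 CPM in cDC1. Irf8, the transcription factor of that lineage, had medians of 140 and 1576 CPM. The double-stranded RNA sensor Tlr3 had medians of 3.64 and 107 CPM. On the other side, Sirpa, the inhibitory receptor of cDC2, had a median of 173 CPM in cDC2 and 6.49 CPM in cDC1, but 289 CPM in monocytes and 302 CPM in Macrophage_2, and cDC2 were below both of these in all 9 libraries. Of the listed cDC2 transcription factor and surface genes, 7 of 10 were higher and 0 lower than in cDC1 in every library, 2 of 9 higher and 3 lower (Sirpa, Klf4 and Zeb2) than in monocytes, and 4 of 9 higher and 2 lower (Sirpa and Zeb2) than in Macrophage_2. Irf4 had medians of 46.5 CPM in cDC2 and 0.78 CPM in cDC1. Cybb, a subunit of the phagocyte oxidase, had medians of 333 CPM in cDC2 and 20.3 CPM in cDC1. Apart from Cd209a, the widest margins over cDC1 belonged to Tnip3, which restrains NF-kappaB signalling (median log2 difference 4.16), the calcium-binding protein gene S100a4 (4.10), Clec10a (3.95) and Tmem176a (3.93). The margins were widest in the other direction for Xcr1 (-5.31), Gcsam (-4.54) and Ifi205 (-3.89).

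Against monocytes, 267 of 4883 genes (5.47%) were higher in cDC2 in all 9 libraries and 430 (8.81%) were lower. Antigen presentation separated these clusters: 9 of 10 MHC class II genes were higher in cDC2 in every library and none was lower, with a median log2 difference of 2.43. H2-Aa, the alpha chain of the class II molecule I-A, had a median of 12690 CPM in cDC2 and 2733 CPM in monocytes. The dendritic cell genes Flt3 (medians 112 and 14.7 CPM) and Zbtb46 (49.7 and 0 CPM), a transcription factor of conventional dendritic cells, went the same way. Klrd1, a lectin-like receptor chain known from NK cells, had the widest margin (median log2 difference 4.36), from a median of 316 CPM in cDC2 to 12.6 CPM in monocytes, and T and B cells had 96.7 CPM. Monocyte genes were lower in cDC2 than in monocytes. Of 9 classical monocyte markers, 6 were lower in every library and none higher, and of 8 non-classical ones also 6 and none. Beside the other clusters the classical markers went the other way. In every library, 3 of 6 were higher in cDC2 than in cDC1 and 4 of 6 higher than in Macrophage_2, S100a4 among both, and none was lower. Ly6c2 ranged from 32.7 to 142 CPM in cDC2 and from 391 to 1232 CPM in monocytes. Lyz2, which encodes lysozyme, had medians of 1215 and 21920 CPM. Ace, the angiotensin-converting enzyme, had medians of 2.06 and 329 CPM.

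Against Macrophage_2, 604 of 5487 genes (11.0%) were higher in cDC2 in all 9 libraries and 523 (9.53%) were lower. All 12 resident macrophage markers that could be compared were lower in cDC2 in every library, with a median log2 difference of -3.66. C1qa, a chain of complement C1q, ranged from 0 to 502 CPM in cDC2 and from 4801 to 9870 CPM in Macrophage_2. Of 12 genes of lysosomes and lipid handling, 9 were lower, among them the cathepsins Ctsb, Ctsd, Ctss and Ctsl. MHC class II genes split: H2-Aa, H2-Ab1, H2-Eb1 and Cd74 were lower in cDC2 than in Macrophage_2 in every library, whereas H2-DMb2, H2-Oa and H2-Ob, which act in peptide loading, were higher. H2-Aa had a median of 20180 CPM in Macrophage_2, above the 12690 CPM of cDC2. Of 11 genes of conventional dendritic cells, 8 were higher in cDC2 and none was lower. After Cd209a, the margins were widest for S100a4 (median log2 difference 4.55), Klrd1 (4.38), Cd7 (4.15), a surface glycoprotein known from T and NK cells, and the transcription factor Bhlhe40 (3.99). Of 12 immediate early genes, which respond within minutes to a stimulus or to tissue handling, 6 were higher in cDC2 than in Macrophage_2 and none was lower.

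**Figure D3:**
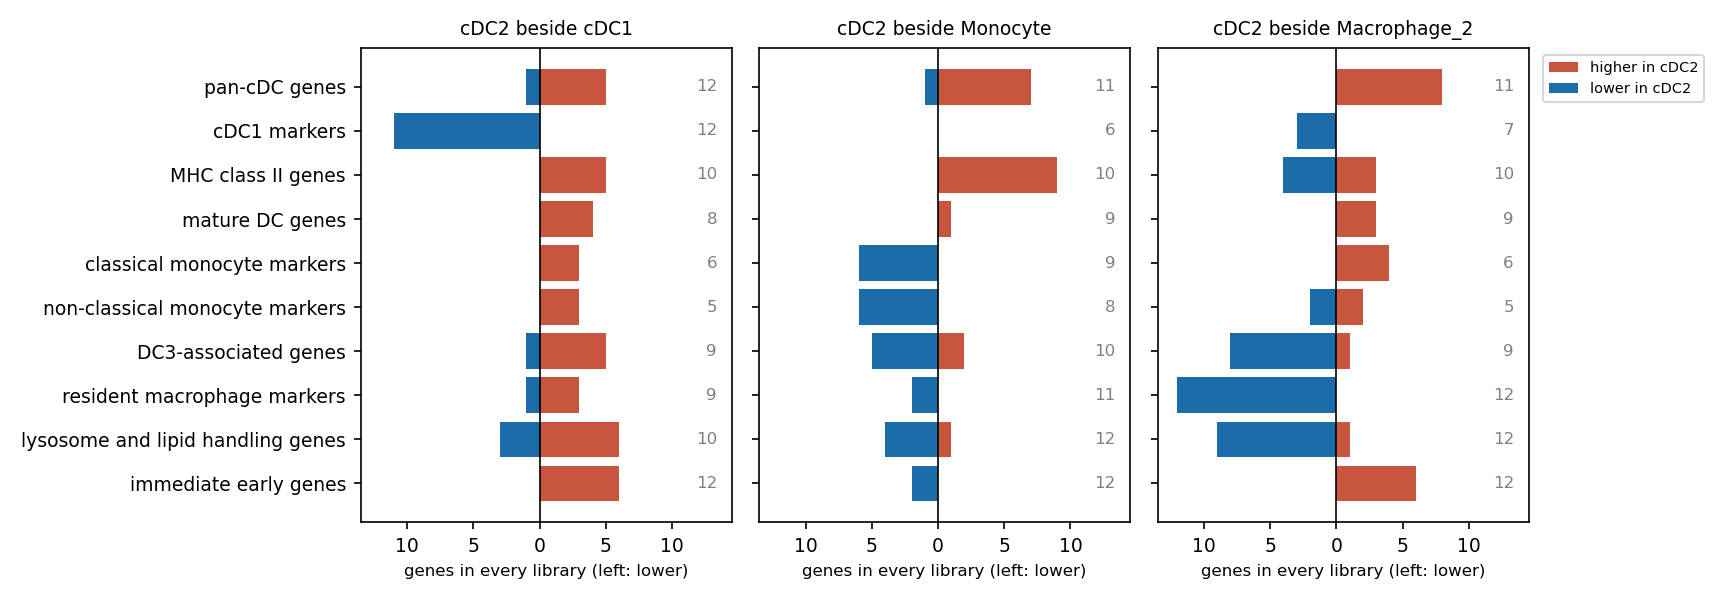
Number of genes per list (x axis) that were higher (right, red) or lower (left, blue) in cDC2 than in cDC1, Monocyte or Macrophage_2 in every library compared, and in grey the number of listed genes that could be compared. Of the cDC1 markers 11 lie to the left beside cDC1, and of the resident macrophage markers 12 lie to the left beside Macrophage_2.

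Genes reported for DC3, a dendritic cell population with monocyte features, took a middle place. Beside cDC1, 5 of 9 were higher in cDC2 in every library and 1, Cd36, was lower. Beside monocytes 2 of 10 were higher and 5 lower, and beside Macrophage_2 1 of 9 was higher and 8 lower. Fcgr3, a low-affinity Fc receptor, had medians of 54.7 CPM in cDC2, 15.0 CPM in cDC1, 320 CPM in monocytes and 538 CPM in Macrophage_2. The membrane protein gene Tmem176b had a median of 623 CPM in cDC2, above monocytes (412 CPM) and below Macrophage_2 (1822 CPM).

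Between compartments, few genes differed within cDC2. In edgeR, with the dataset as block, 15 of 4935 tested genes passed an adjusted p of 0.05 between medulla and cortex, 7 higher (0.142%) and 8 lower (0.162%) in the medulla. At an unadjusted p under 0.05 there were 248, about the share that this threshold gives where no gene differs. OM exceeded cortex in 2 genes (0.0405%) and fell below it in 3 (0.0608%), IM exceeded cortex in 5 (0.101%) and fell below it in 4 (0.0811%), and OM exceeded IM in 3 (0.0608%) and fell below it in 5 (0.101%). The contrasts with cortex share the cortical libraries, so their calls are not independent of each other. Without the dataset as block edgeR called 0 genes in each contrast (31, 43, 26 and 22 at an unadjusted p under 0.05), where DESeq2 with the block called 8, 4, 7 and 4. Of the DESeq2 calls only 2, 1, 1 and 0 were also edgeR calls, Ifi27l2a and Ifitm1 for medulla, Ifi27l2a for OM and Ifitm1 for IM against cortex, so every other call named below was lost with DESeq2. When no cell could contribute more than 10 UMIs of a gene, 0 genes were called in the contrasts with cortex and 5 between OM and IM. Without the Hamburg dataset the calls were 2, 1, 1 and 3 (medulla, OM and IM against cortex, and OM against IM), and without the Hamburg OM library alone 1, 0, 2 and 1.

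Of the 3 defining markers, Mgl2 was higher in the medulla. Its levels were 117, 456 and 175 CPM in Aachen, 314, 566 and 621 CPM in Bonn and 88.7, 273 and 260 CPM in Hamburg. Both medullary libraries exceeded the cortical one in each dataset, but the groups overlapped across datasets, with Bonn cortex above 3 medullary libraries. The log2 fold change was 1.19 ± 0.22 (SE; edgeR adjusted p = 0.0156) for medulla against cortex and 1.32 ± 0.25 (adjusted p = 0.0227) for OM against cortex, and 1.07 ± 0.24 (adjusted p = 0.0784) for IM against cortex. Mgl2 UMIs came from 51 of 147 cortical, 88 of 281 OM and 99 of 240 IM cells, and no cell held more than 6.73% of them in a compartment. Such counts of cells, here and below, pool datasets of unlike depth. They describe how widely a gene was carried and do not compare compartments. With the UMIs per cell capped the fold change was 0.94 and the adjusted p 0.0668. Cd209a and Clec10a did not pass: their log2 fold changes were 0.14 ± 0.15 (adjusted p = 0.994) and 0.37 ± 0.17 (adjusted p = 0.962). Clec10a was nonetheless above its own cortex in both medullary libraries of each dataset, at 190, 307 and 219 CPM in Aachen, 391, 466 and 439 CPM in Bonn and 206, 346 and 255 CPM in Hamburg. Macrophage_2, which expresses Mgl2 at higher levels, had a medullary fold change of 0.08, and the difference between the clusters, 1.10 ± 0.26, did not pass (edgeR interaction, adjusted p = 0.119).

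The sequence upstream of Mgl2 is shown because, of the 3 defining markers, only Mgl2 was called between compartments. In the 300-base RefSeq promoter (GRCm38.p6, 250 bases before to 50 after the start site), the core AGGAAGT recognised by PU.1, a transcription factor of myeloid cells, occurred 1 time, and 9.35% of 32851 promoters of this length hold it on either strand. Capitals mark the match, which starts at base -250, in chr11:70130107-70130226 on the plus strand.
Mgl2: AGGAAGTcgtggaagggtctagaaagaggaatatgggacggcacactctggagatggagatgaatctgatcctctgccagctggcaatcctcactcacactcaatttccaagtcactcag

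Among the 10 listed transcription factor and surface genes of cDC2, only Cd7, described below, passed between medulla and cortex. Irf4 was 29.2, 46.5 and 32.8 CPM in Aachen, 33.3, 66.6 and 59.6 CPM in Bonn and 46.1, 71.5 and 89.4 CPM in Hamburg, with a log2 fold change of 0.81 ± 0.25 (edgeR adjusted p = 0.417). Notch2, a receptor that cDC2 need in spleen and gut, had a log2 fold change of 0.67 ± 0.20 (adjusted p = 0.327). For both genes each medullary library lay above its own cortex. Of the 10 cDC2 transcription factor and surface genes, 0 were called higher and 1, Cd7, lower, and the median log2 fold change was 0.106. Among all 4935 tested genes, 7 (0.142%) were called higher and 8 (0.162%) lower, and the median was 0.0111. The 10 MHC class II genes had 0 calls in either direction and a median of 0.125. Cd74, the invariant chain, kept within 36290 to 50240 CPM over all 9 libraries, and its log2 fold change was 0.07 ± 0.08 (adjusted p = 0.994).

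Ifi27l2a and Irf7, which interferon induces, were lower in medullary cDC2. Ifi27l2a, an interferon-induced gene outside that list, was 1068, 353 and 744 CPM in Aachen, 1091, 303 and 481 CPM in Bonn and 603, 372 and 591 CPM in Hamburg. The cortical library was the highest of each dataset and the OM library the lowest. The log2 fold change was -1.004 ± 0.18 for medulla against cortex (edgeR adjusted p = 0.0127) and -1.38 ± 0.21 for OM against cortex (adjusted p = 0.00802). Irf7, the transcription factor that amplifies the type I interferon response, was 102, 27.9 and 87.6 CPM in Aachen, 75.0, 36.3 and 19.5 CPM in Bonn and 124, 54.5 and 61.1 CPM in Hamburg. The cortex was again highest in each dataset, and the log2 fold change was -1.30 ± 0.25 (adjusted p = 0.0186). Irf7 UMIs came from 55 of 147 cortical, 32 of 281 OM and 37 of 240 IM cells, and Ifi27l2a UMIs from 106, 119 and 133 cells. Cortical cells were the deepest of each dataset, which raises the count of cells with a UMI there.

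Of the 10 listed interferon response genes that could be tested, Irf7 was called lower, 0 were called higher, 9 had a negative fold change and the median was -0.38. Among all 4935 tested genes, 8 (0.162%) were called lower and the median was 0.0111. Bst2, which tethers budding virions, was 483, 307 and 252 CPM in Aachen, 324, 170 and 186 CPM in Bonn and 426, 346 and 253 CPM in Hamburg. Its cortex was the highest in each dataset, but its log2 fold change of -0.70 ± 0.16 did not pass (edgeR adjusted p = 0.076). Isg15, a ubiquitin-like modifier, had another pattern: 176, 27.9 and 219 CPM in Aachen, 105, 66.6 and 113 CPM in Bonn and 163, 101 and 266 CPM in Hamburg. It was lowest in the OM and highest in the IM in every dataset, and OM was lower than IM by a log2 fold change of -1.32 ± 0.26 (adjusted p = 0.0230). The promoter of Isg15 is shown as an example of the motif of these genes. The IRF element searched, GAAANNGAA on either strand, occurs in 8.56% of the 32851 promoters and in those of 7 of the 11 listed genes with a promoter in the table. It was not found in the window of Irf7. Capitals mark 3 overlapping matches in the 120 bases before the start site of Isg15, chr4:156200819-156200938 on the minus strand of GRCm38.p6.
Isg15: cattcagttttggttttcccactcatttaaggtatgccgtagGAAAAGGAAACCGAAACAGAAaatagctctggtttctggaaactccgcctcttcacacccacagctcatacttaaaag

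Fcgr1 and Cd7 were also lower in the medulla. Fcgr1, the high-affinity Fc receptor for IgG that also marks macrophages, was 87.8, 18.6 and 21.9 CPM in Aachen, 59.5, 9.08 and 19.5 CPM in Bonn and 31.9, 15.8 and 19.6 CPM in Hamburg. All 6 medullary libraries lay below all 3 cortical ones, and the log2 fold change was -1.62 ± 0.34 (edgeR adjusted p = 0.0352). The call was kept in 6 of 17 alternatives. It was lost with DESeq2 (adjusted p = 1), without the block (adjusted p = 1), with the UMIs per cell capped (adjusted p = 0.0668), without the neutrophil-UMI cells (adjusted p = 0.0509), without Aachen (0.0967) or Hamburg (0.253), and without the single libraries Aachen cortex, Aachen OM, Bonn OM, Bonn IM or Hamburg OM (adjusted p = 0.0557 to 0.263). The UMIs came from 36 of 147 cortical, 15 of 281 OM and 21 of 240 IM cells. Of 11 tested resident macrophage markers, Fcgr1 was called, 10 had a negative fold change and the median was -0.552. Over all 4935 tested genes, 8 (0.162%) were called lower and the median was 0.0111. C1qa was 410, 502 and 252 CPM in Aachen, 289, 0 and 103 CPM in Bonn and 224, 158 and 129 CPM in Hamburg, with a log2 fold change of -1.12 ± 0.38 (adjusted p = 0.539). The sum of all 14 macrophage markers per 10000 UMIs was 14.0 to 24.2 in the cortical cDC2 and 5.93 to 27.5 in the medullary ones, and its part in the Fcgr1 result was not tested.

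Cd7 was 219, 316 and 164 CPM in Aachen, 208, 51.5 and 50.4 CPM in Bonn and 355, 219 and 116 CPM in Hamburg. IM was lowest in every dataset, whereas OM lay above cortex in Aachen. The log2 fold change was -1.22 ± 0.23 (edgeR adjusted p = 0.0186) between medulla and cortex and -1.62 ± 0.28 (adjusted p = 0.0123) between IM and cortex. T and B cells held a median of 119 CPM of Cd7. Without called doublets and cells with T or B cell UMIs, which removed 219 of the 668 cDC2 cells, the log2 fold change of medulla against cortex was -0.42 (adjusted p = 0.999).

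Of the heat shock genes, Hspb1 was higher in medullary cDC2. Hspb1, a small heat shock protein that holds unfolded proteins in solution, was 58.5, 288 and 65.7 CPM in Aachen, 1.19, 18.2 and 111 CPM in Bonn and 92.2, 401 and 312 CPM in Hamburg. Each medullary library exceeded its own cortex, although the highest medullary library was the OM in Aachen and Hamburg and the IM in Bonn. The log2 fold change was 2.54 ± 0.49 (edgeR adjusted p = 0.0186) for medulla against cortex and 2.59 ± 0.53 (adjusted p = 0.0407) for IM against cortex. The UMIs lay in few cells, 9 of 147 in cortex, 33 of 281 in OM and 28 of 240 in IM, and 1 cell held 68.7% of the cortical UMIs and another 32.7% of those of the OM. With the UMIs per cell capped at 10, the log2 fold change was 1.98 and the adjusted p 0.0668. In cDC1 the medullary fold change of Hspb1 was -1.67, and the difference of 4.23 ± 0.81 between the clusters passed (edgeR interaction, adjusted p = 0.0268).

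Of the 8 heat shock genes, 7 had a positive fold change, 1 was called and the median was 0.471. Over all 4935 tested genes, 7 (0.142%) were called higher and the median was 0.0111. Dnajb1, a cochaperone of Hsp70, was 994, 1283 and 1697 CPM in Aachen, 80.9, 360 and 441 CPM in Bonn and 752, 1098 and 914 CPM in Hamburg, a log2 fold change of 1.01 ± 0.24 (edgeR adjusted p = 0.0836). Hspa1a, an inducible Hsp70, was 1667, 2855 and 2288 CPM, 715, 2152 and 1615 CPM, and 3657, 3703 and 3710 CPM in the same order. The Hamburg libraries lay close together, and the log2 fold change of 0.64 ± 0.17 did not pass (adjusted p = 0.203). Immediate early genes, which tissue dissociation is known to induce together with heat shock genes, had 10 positive fold changes of 12, 0 calls and a median of 0.305, and the part of dissociation in either list was not tested. The promoter of Hspb1 is shown for the heat shock element, here GAANNTTC on either strand. This motif occurs in 7.86% of all promoters and in those of 6 of the 7 listed genes with a promoter in the table. Capitals mark 2 matches upstream of the start site in chr5:135887769-135887888 on the plus strand of GRCm38.p6.
Hspb1: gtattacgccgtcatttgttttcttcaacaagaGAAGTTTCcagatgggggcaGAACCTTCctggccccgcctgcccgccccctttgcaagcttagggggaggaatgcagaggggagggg

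**Figure D4:**
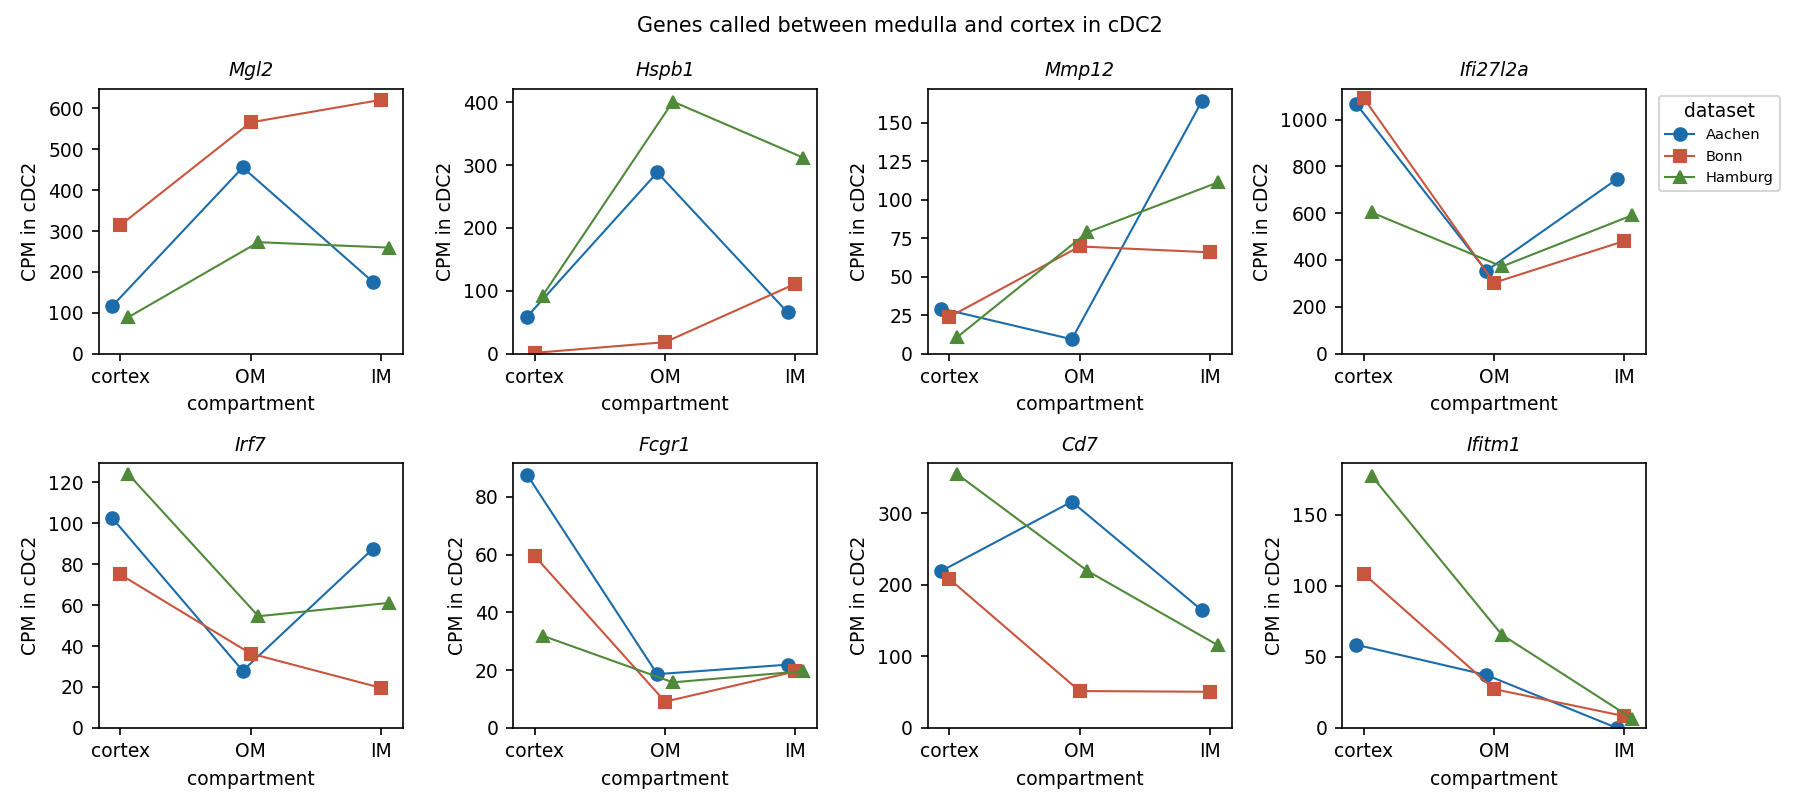
Level (CPM, y axis) of 8 genes called between medulla and cortex in cDC2, by compartment (x axis), with 1 line per dataset. Mgl2 and Hspb1 lie above their own cortex in both medullary libraries, Ifi27l2a, Irf7, Fcgr1 and Ifitm1 lie below it, and Mmp12 and Cd7 deviate in Aachen OM.

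Further calls between medulla and cortex rested on few cells or on transcripts known from other cells. Mmp12, a secreted elastase of macrophages, was 29.2, 9.30 and 164 CPM in Aachen, 23.8, 69.6 and 65.8 CPM in Bonn and 10.6, 78.8 and 111 CPM in Hamburg. IM exceeded cortex in every dataset by a log2 fold change of 2.06 ± 0.40 (edgeR adjusted p = 0.0341), and medulla exceeded cortex by 1.80 ± 0.39 (adjusted p = 0.0377). Macrophage_2 held a median of 541 CPM of Mmp12, and monocytes had a medullary fold change of -1.65, which differed from that of cDC2 by 3.45 ± 0.65 (edgeR interaction, adjusted p = 0.0168).

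Ifitm1, which restricts viral entry, was 58.5, 37.2 and 0 CPM in Aachen, 108, 27.2 and 8.23 CPM in Bonn and 177, 65.5 and 6.54 CPM in Hamburg. It fell from cortex to OM to IM in every dataset, and the log2 fold change of IM against cortex was -4.07 ± 0.35 (edgeR adjusted p = 4.17e-07). Only 9 of 147 cortical, 16 of 281 OM and 9 of 240 IM cells held a UMI, and 1 cortical cell held 61.6% of the cortical UMIs. With the UMIs per cell capped at 10 the log2 fold change of medulla against cortex was -0.78 (adjusted p = 0.889), and OM against cortex turned to 0.34.

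The alarmin genes S100a8 and S100a9, which neutrophils carry in large amounts, were at 0 in all Aachen and Bonn libraries. In Hamburg S100a8 was 280, 168 and 2.18 CPM and S100a9 was 482, 204 and 2.18 CPM in cortex, OM and IM. S100a9 UMIs lay in 1 of 147 cortical, 4 of 281 OM and 2 of 240 IM cells, so the calls between medulla and cortex (log2 fold change -3.60 and -4.25; edgeR adjusted p = 0.000129 and 2.27e-06) came from 1 dataset and a handful of cells. Without the 8 cDC2 cells that held 2 or more neutrophil UMIs, 12, 5, 12 and 6 genes were called in the 4 contrasts.

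Fxyd2 and Spp1 are known from kidney tubule cells. Fxyd2, a regulator of the sodium pump, was 29.2, 158 and 43.8 CPM in Aachen, 5.95, 24.2 and 66.8 CPM in Bonn and 0, 25.5 and 17.4 CPM in Hamburg. It was above its own cortex in all 6 medullary libraries, with a log2 fold change of 2.97 ± 0.58 (edgeR adjusted p = 0.0186). Spp1, which encodes osteopontin, was 146, 18.6 and 21.9 CPM in Aachen, 19.0, 9.08 and 10.3 CPM in Bonn and 95.8, 10.9 and 34.9 CPM in Hamburg, with a log2 fold change of -2.05 ± 0.38 (adjusted p = 0.0156). These 2 were the only tested members of the list of 12 tubule genes and went opposite ways. In T and B cells the medullary fold changes were 2.11 for Fxyd2 and -2.55 for Spp1. The differences from cDC2, 0.91 ± 1.36 and 0.51 ± 0.57, did not pass (edgeR interaction, adjusted p = 1 for both). The medullary fold change of Fxyd2 was 2.23 in Macrophage_2, 2.23 in monocytes and 0.23 in cDC1. That of Spp1 was 0.45, 0.57 and 0.04 in the same order, so of these classes only T and B cells shared its fall. None of these differences from cDC2 passed either. The part of tubule RNA in these results was not tested. Lars2, Gm42418 and AY036118, which overlap or resemble ribosomal RNA sequence, were called higher in the medulla by 0.61 to 0.91 on the log2 scale. Lars2 and AY036118 did not exceed 9.30 CPM in any Aachen library, and Gm42418 reached 175 CPM there against at least 9109 CPM elsewhere. Gm42418 and AY036118 overlap on opposite strands, and how their reads were assigned was not examined.

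Between OM and IM, cDC2 differed in Fscn1 and Nudt17, listed as genes of mature dendritic cells. Of 13 tested genes of the mature state, 12 had a negative fold change, 2 were called lower in the OM and 0 higher, and the median log2 fold change was -1.39. Among all 4935 tested genes, 5 (0.101%) were called lower in the OM and the median was 0.0136. Fscn1, which bundles actin in the dendrites of mature cells, was 73.1, 0 and 186 CPM in Aachen, 95.2, 127 and 239 CPM in Bonn and 245, 125 and 434 CPM in Hamburg. IM was the highest library of each dataset, and OM lay below IM by a log2 fold change of -1.61 ± 0.31 (edgeR adjusted p = 0.0197). Nudt17, a nucleotide hydrolase gene on the list of the mature state, was 0, 0 and 21.9 CPM in Aachen, 22.6, 0 and 46.3 CPM in Bonn and 31.9, 6.06 and 54.5 CPM in Hamburg. All 3 IM libraries exceeded all OM libraries, and the log2 fold change was -3.65 ± 0.58 (adjusted p = 0.00463). Few cells carried these genes: Fscn1 UMIs were found in 8 of 281 OM and 20 of 240 IM cells, and Nudt17 UMIs in 3 and 14 cells.

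Of the genes that did not pass, Socs2, a feedback inhibitor of cytokine signalling, was 14.6, 0 and 87.6 CPM in Aachen, 39.3, 39.3 and 74.0 CPM in Bonn and 35.5, 18.2 and 58.9 CPM in Hamburg, a log2 fold change of OM against IM of -1.52 ± 0.36 (edgeR adjusted p = 0.151). Ccr7, the chemokine receptor that guides dendritic cells to lymph nodes, did not share the pattern in Bonn. It was 14.6, 55.8 and 219 CPM in Aachen, 172, 90.8 and 61.7 CPM in Bonn and 724, 325 and 556 CPM in Hamburg, with a log2 fold change of -0.54 ± 0.36 (adjusted p = 0.999). Cd40, the receptor by which T cells license dendritic cells, had a log2 fold change of -1.26 ± 0.32 (adjusted p = 0.246).

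The other genes called lower in the OM than in the IM were Isg15, described above, Ccl5 and Dusp2. Ccl5, a chemokine for T cells and monocytes, was 1009, 391 and 2003 CPM in Aachen, 347, 288 and 698 CPM in Bonn and 954, 560 and 776 CPM in Hamburg. OM was the lowest library of each dataset, and OM lay below IM by -1.31 ± 0.24 on the log2 scale (edgeR adjusted p = 0.0184). A UMI of Ccl5 was found in 26 of 281 OM and 39 of 240 IM cells, and 1 cell held 42.4% of the OM UMIs. Dusp2, a phosphatase of activated immune cells, was 234, 83.7 and 208 CPM in Aachen, 28.6, 18.2 and 42.2 CPM in Bonn and 121, 83.6 and 209 CPM in Hamburg. OM was again lowest in each dataset, with a log2 fold change of -1.29 ± 0.24 (adjusted p = 0.0184). When no cell contributed more than 10 UMIs of a gene, Fscn1 (adjusted p = 0.0141), Nudt17 (adjusted p = 0.00695) and Dusp2 (adjusted p = 0.0230) still passed between OM and IM. Higher in the OM were S100a8, S100a9 and Ifitm1, whose cells are given above. Anxa3, an annexin, was called only between IM and cortex, at 0, 27.9 and 65.7 CPM in Aachen, 22.6, 36.3 and 79.2 CPM in Bonn and 21.3, 15.8 and 45.8 CPM in Hamburg, with a log2 fold change of 1.73 ± 0.35 (adjusted p = 0.0407).

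**Figure D5:**
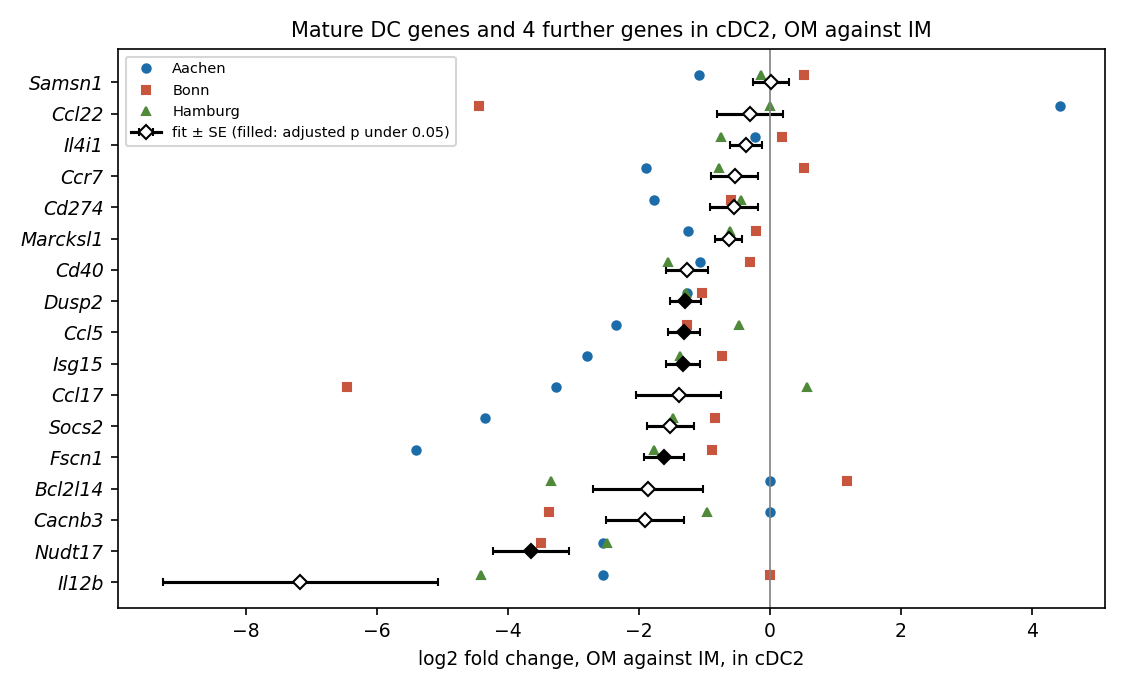
log2 fold change of OM against IM in cDC2 (x axis) for the tested genes of mature dendritic cells and for Ccl5, Isg15, Dusp2 and Cd40 (y axis). Diamonds with bars are the fit ± SE, filled where the adjusted p was under 0.05, and coloured symbols are the 3 datasets; most fits lie below 0, and Fscn1, Nudt17, Isg15, Ccl5 and Dusp2 passed.

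Gene groups linked to the medullary milieu gave no call, but lists this small would seldom hold one. Of all 4935 tested genes, 0.142% were called higher and 0.162% lower in the medulla. The 9 tested of 14 genes of hypoxia and glycolysis had a median log2 fold change of 0.122 between medulla and cortex. For the 6 tested of 8 genes of the osmotic response it was 0.147, beside 0.0111 over all tested genes. Of 13 receptors for chemokines and growth factors, 0 were called. Cytokines and chemokines had 0 calls among 17 between medulla and cortex, and 1, Ccl5, between OM and IM, where 14 of the 17 had a negative fold change. In that contrast 0.101% of all tested genes were called lower in the OM.

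The medullary effect in cDC2 was tested against that in another class as the difference between both. The dataset within each class was the block, and the sums of both classes from the same library were taken as independent. Against cDC1, 7 of 4995 genes (0.140%) passed. Among them, Hspb1, Dnajb1, Ier3, Itgae and AY036118 had a higher medullary effect in cDC2 than in cDC1, and Cxcl2 a lower one. The effects in cDC2 and cDC1 were 1.03 and -0.91 for Dnajb1, 0.59 and -2.46 for Ier3, and 3.74 and -0.25 for Itgae. They were 0.91 and -0.48 for AY036118, and -0.56 and 2.65 for Cxcl2. For Ier3 and Cxcl2 the larger effect was thus that in cDC1, whose smallest library compared held 13 cells. The difference was 1.94 ± 0.40 for Dnajb1 (edgeR adjusted p = 0.0329), and 3.05 ± 0.50 (adjusted p = 0.00738) for Ier3, a stress-induced gene that was 190, 27.9 and 98.5 CPM in Aachen, 60.7, 72.6 and 140 CPM in Bonn and 160, 286 and 329 CPM in Hamburg in cDC2. Against monocytes, 2 of 6503 genes (0.0308%) passed, Mmp12 and the interferon-induced chemokine Cxcl10, whose effect was 0.19 in cDC2 and -2.53 in monocytes. Against T and B cells 6 of 9437 genes (0.0636%) passed, and against Macrophage_2 none of 5928 did (0%). There, 246 reached an unadjusted p under 0.05 in edgeR. The pairing of both classes by library was left out of the fit, so this count cannot be set against the share expected where no gene differs. Without doublets and cells with lymphocyte UMIs, 2 passed against Macrophage_2. The medullary effect in cDC2 minus that in Macrophage_2 was -1.44 ± 0.34 for Irf7 (adjusted p = 0.119) and -1.58 ± 0.35 for Fcgr1 (adjusted p = 0.0996), so a difference from macrophages was not shown for either gene.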

How the data were processed

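The authors mapped the reads with Cell Ranger to mm10 and filtered, integrated and clustered the cells with Seurat (versions of the files' processing not given in the labels). The deposited values are estimated counts of UMIs per gene and cell, not normalized, with cluster, compartment and dataset of each cell. Cells held 201 to 3999 genes, and library totals ran from 2122809 to 15267126 UMIs. Aachen and Bonn values are whole numbers, whereas 0.118% of the Hamburg values above 0 are; the step behind this is not given in the sources used here. Aachen libraries hold 2 barcode suffixes each.

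The members and gene lists were chosen with earlier results of these data known. Counts were summed per class and library (at least 10 cells; Bonn OM has 7 cDC1), rounded, filtered with filterByExpr, scaled by TMM and tested by quasi-likelihood in edgeR 4.0.16 under R 4.3.3, the dataset entering as a block. P-values were adjusted by Benjamini-Hochberg over all genes tested (threshold 0.05). After each gene's compartment mean was subtracted, libraries of the same dataset correlated at 0.645 to 0.784 and those of different datasets at -0.806 to 0.233. The subtraction itself lowers the values between datasets of the same compartment. The use of the dataset as a pairing therefore rests on the values within datasets. Differences between clusters used log2 CPM on plain totals with a prior count of 2. Shares were compared by exact permutation within datasets. Tested on simulated data of the cDC2 libraries (4617 genes), the medulla against cortex test recovered 94% of 2-fold and 99% of 4-fold changes and made 4 false calls. The changes were placed only in genes above the median level. The simulation held no differences between datasets, no gene-specific spread and no outlier cells, so recovery in the real data may be lower. DESeq2 1.42.0, other scalings and filters, the fit without the block, doublet removal (scanpy 1.11.5), thinning to 500 UMIs and leaving out datasets or libraries were the alternatives; a cap of 10 UMIs per cell and gene and the removal of neutrophil-UMI cells were added after seeing the data. Named genes were the defining markers, called genes going the same way in every dataset, list members called or most abundant, and the 10 widest margins per cluster comparison; others were named after their values were seen. Gene positions are from GENCODE M21, promoters from RefSeq (GRCm38.p6). Of the genes whose medullary effect differed from that in cDC1, 1 is not reported here.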

Additional observations from a re-analysis of the deposited data

Results flagged for a closer look

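The effect of the medulla differed between cDC2 and another class by a test of the difference (edgeR interaction, adjusted p under 0.05) for the 14 results given here, each given as the log2 effect in cDC2 minus that in the other class. Against cDC1 these were Hspb1 (4.23), Itgae (3.99), Ier3 (3.05), Dnajb1 (1.94), AY036118 (1.39), and Cxcl2 (-3.21). Itgae, the integrin chain CD103, was at 0 in all Aachen cDC2 libraries, at 1.19, 12.1 and 27.8 CPM in Bonn and at 3.55, 52.1 and 26.2 CPM in Hamburg. Cxcl2 reached at most 1.19 CPM in the Bonn cDC2 libraries. Against monocytes, Mmp12 (3.45) and Cxcl10 (2.72) differed. Against T and B cells, Gcnt2 (2.19), Ccnd2 (1.38), Arl5c (-1.17), S100a9 (-6.45), Igkv1-117 (-7.32) and Igkv6-20 (-8.97) differed; the last 2 are immunoglobulin light chain segments of B cells in a family of near-identical copies, so their reads are uncertain. Without doublets and cells with T or B cell UMIs, 0, 1 and 3 genes differed from cDC1, monocytes and T and B cells.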

How the results depend on the processing

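Counts of calls are given as medulla, OM and IM against cortex, then OM against IM, where the result was 15, 5, 9 and 8. They were 8, 4, 7 and 4 with DESeq2 (14795 genes; 2, 1, 1 and 0 of these shared with edgeR), 15, 4, 5 and 6 without TMM factors, 37, 39, 36 and 30 without a filter on low counts, 0 in each without the replicate block, 1, 5, 1 and 7 without doublets and cells with lymphocyte UMIs (2305 genes tested), 3, 2, 0 and 0 in thinned cells (753 genes tested), and 0, 0, 0 and 5 with the UMIs of a gene capped at 10 in each cell. Leaving out 1 dataset or library gave 1 to 18, 0 to 17, 1 to 17 and 1 to 15. Without single libraries the counts were 8, 4, 6 and 5 (Aachen cortex), 16, 7, 14 and 5 (Aachen OM), 17, 12, 13 and 6 (Aachen IM), 13, 11, 7 and 14 (Bonn cortex), 11, 16, 4 and 10 (Bonn IM), 18, 12, 17 and 9 (Hamburg cortex), 1, 0, 2 and 1 (Hamburg OM) and 15, 8, 7 and 3 (Hamburg IM); without Bonn OM they were 11, 5, 8 and 8. Genes with another medullary effect than cDC1, Monocyte, Macrophage_2 and T and B cells numbered 0, 1, 2 and 3 without doublets and cells with lymphocyte UMIs, and 2 to 13, 0 to 9, 0 to 7 and 6 to 27 without 1 dataset, each highest without Bonn. Of 688 alternative values of the named fold changes, 685 kept their direction and 406 also their call (for medulla against cortex 12 of 21 for Mgl2, 12 of 21 for Ifi27l2a, 10 of 20 for Irf7, 11 of 20 for Cd7, 13 of 21 for Hspb1 and 6 of 17 for Fcgr1; for OM against IM 12 of 20 for Fscn1 and 12 of 15 for Nudt17); those that turned were Ifitm1 in OM against cortex with the cap (0.34), and S100a8 (-0.54) and S100a9 (-0.94) in OM against IM without the Hamburg IM library (ranges without 1 dataset or library -0.54 to 6.03 and -0.94 to 6.31). The share differences were 2.95, 4.69 and 32.0 points (of immune cells, mononuclear phagocytes and conventional dendritic cells) without the Malat clusters, with an adjusted p of 0.037 each, and ranged over 2.05 to 3.70, 3.15 to 5.51 and 29.1 to 34.1 points without 1 dataset, where the smallest possible p is 0.111. In thinned cells 120, 73 and 153 genes were higher in cDC2 than in cDC1, Monocyte and Macrophage_2 in every library. Causes were not tested. Aachen, with the shallowest cells, limits what can be said of genes with few UMIs.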
